A study of Mus musculus with 12 samples.

Results

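Double mutant embryos, homozygous for acd and lacking p53 (genotype Acdacd/acd, p53-/-), were set against embryos homozygous for acd alone (Acdacd/acd). The comparison measures what p53 loss does to transcripts where acd is already homozygous, and both groups carry acd. Its members were the 3 arrays titled double and the 3 titled acd, 6 of the 12 arrays of the series. The other 6 were 3 arrays of wild-type (wt) and 3 of p53-/- (p53) embryos. RNA was taken from the whole mouse embryo at E10.5, a midgestation stage, and each array read 1 sample that the labels call a biological replicate. The labels describe neither allele. They name no strain or litter and do not say whether embryos were pooled. Values are RMA log2 values, a scale on which a difference of 1 is a doubling of signal.

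The Acd product, TPP1, belongs to shelterin, which caps chromosome ends, and it helps to bring telomerase to them. Chromosome ends without that cap are read as broken DNA, and the resulting kinase signal stabilises p53. p53 then switches on genes that stop the cell cycle, such as Cdkn1a, and genes that start cell death, such as Bbc3.

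Among the arrays, correlations over 13501 genes ran from 0.967 to 0.998. Double replicates 1 and 2 were the least like the rest: their correlations with other arrays had medians of 0.972 and 0.987, while these medians were 0.995 to 0.997 elsewhere. The median SD per gene between arrays of a group was 0.209 in double and 0.072 in acd embryos. Sex differed too: the 3 acd arrays and double replicate 1 carried Y-linked transcripts at a mean of 8.08 to 8.24, while double replicates 2 and 3 measured 3.44 and 3.30 and read Xist at 11.91 and 11.81. Results are therefore given with and without single arrays where that changes them. Acd itself, the targeted transcript, measured 8.27, 8.31 and 8.22 in acd and 8.44, 8.42 and 8.23 in double arrays, with overlapping groups (0.10 ± 0.08 SE, limma adjusted p = 0.594). The labels do not say whether its probes fall in altered sequence. The transcript of p53 was not analysed here.

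The library labelled acd replicate 1 went against its label for transcripts that p53 drives. Ccng1 and Phlda3 lay among the double arrays in it and Cdkn1a just below them, as given for each gene below. It was the lowest of the 3 acd arrays for 25 of 37 p53 targets, against 3629 of all 13501 tested genes. There were 12 autosomal genes whose p53 and wt arrays did not overlap and whose means differed by over 0.5, of which 8 lie on chromosome 11. The library labelled acd replicate 1 lay nearer the p53 mean for 12 of these 12, acd replicates 2 and 3 for 9 and 3, and the double arrays for 9, 8 and 10. Its Acd value lay with the other acd arrays. Whether its label is right was not tested.

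No gene passed limma's test of double against acd at an adjusted p of 0.05 (0% of 13501 genes). At an unadjusted p under 0.05, 853 genes (6.32%) measured higher in double embryos and 847 (6.27%) lower. Centring each array on its median turned this split into 654 higher and 1033 lower, with a median shift of all genes of -0.04 in place of -0.01. The main fit also takes its spread from the wt and p53 arrays, and with the 6 arrays alone the counts were 297 higher and 278 lower. All 3 double arrays lay above all 3 acd arrays for 595 genes (4.41%) and below them for 932 (6.9%). These shares are the background for each gene group that follows. Of all tested genes 6379 measured higher and 7122 lower, and the median difference was -0.01.

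Which double array was left out decided the number of calls. Without double replicate 3, 996 genes were called higher (7.38%) and 880 lower (6.52%). Without double replicate 1 or without double replicate 2, 0 genes were called, with 899 and 701 higher and 854 and 713 lower at an unadjusted p under 0.05. With double replicate 3 as the only double array, whose spread is then assumed to be that of the other groups, 1 gene was called higher and 30 lower. Without the library labelled acd replicate 1, 4 genes were called, all lower in double embryos, and 3 of them are p53 targets. Since that library was singled out on p53 targets, these calls are no separate test of them. Likewise, double replicate 3 lay apart from double replicates 1 and 2 in several gene groups below. Calls without it are therefore no separate test of those groups.

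Targets of p53 that arrest the cell cycle or feed back on p53 were led by Ccng1, which encodes cyclin G1. Ccng1 measured 8.34, 10.16 and 10.34 in acd and 8.44, 8.51 and 8.32 in double arrays. Acd replicates 2 and 3 were high and the library labelled acd replicate 1 lay among the double arrays, so the groups overlapped. The difference was -1.19 ± 0.39 SE (limma unadjusted p = 0.0112, adjusted p = 0.37), and without that library it was -1.82 (adjusted p = 0.00217). That library was singled out partly on Ccng1, Cdkn1a and Phlda3, so p-values without it are no separate test of these genes. For Ccng1, wt arrays measured 9.22, 9.26 and 8.75 and p53 arrays 8.32, 8.54 and 8.39. In double arrays Ccng1 was thus at the p53 level.

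Cdkn1a, which encodes the cyclin-dependent kinase inhibitor p21, had a similar layout. It measured 8.02, 8.83 and 8.99 in acd and 8.06, 8.07 and 8.06 in double arrays. Again acd replicates 2 and 3 alone were high. The difference was -0.55 ± 0.19 SE (adjusted p = 0.37), or -0.85 (adjusted p = 0.00505) without the library labelled acd replicate 1. Wt arrays ran from 8.04 to 8.09, so the 3 double arrays also lay at the wt level.

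The promoters of these 2 genes are shown because both genes differed without the library labelled acd replicate 1 and are textbook p53 targets. Each line gives the 250 bases before the start from RefSeq, build GRCm38.p6, 5′ to 3′ on the gene's strand, with matches to the p53 half-site in capitals. Cdkn1a lies on the plus strand at chr17:29090729-29090978, shown for 1 of its 2 listed starts, and Ccng1 on the minus strand at chr11:40755287-40755536.
Cdkn1a: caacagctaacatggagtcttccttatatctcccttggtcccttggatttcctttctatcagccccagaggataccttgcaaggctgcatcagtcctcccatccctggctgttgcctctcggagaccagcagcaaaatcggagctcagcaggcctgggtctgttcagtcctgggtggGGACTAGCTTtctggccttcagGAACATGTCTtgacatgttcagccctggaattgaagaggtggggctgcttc
Ccng1: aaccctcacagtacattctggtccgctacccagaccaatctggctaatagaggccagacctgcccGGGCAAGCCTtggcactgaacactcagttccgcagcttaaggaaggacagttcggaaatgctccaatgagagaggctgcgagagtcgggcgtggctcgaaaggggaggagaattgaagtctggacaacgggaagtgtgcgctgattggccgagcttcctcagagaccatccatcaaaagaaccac
Cdkn1a held 2 matches in this stretch and Ccng1 held 1. The p53 half-site was searched on both strands of windows of 300 bases, 250 before and 50 after each start. It was present in 8.36% of 32851 RefSeq windows and in 8.35% of the 10836 tested genes with a window. It was present in 7 of 13 arrest and feedback targets with a window, in 2 of 6 death targets and in 1 of 10 metabolism and repair targets. Lists not chosen as p53 targets held it too, in 5 of 12 pan-neuronal, 3 of 8 neural crest and 4 of 11 macrophage genes with a window. A match describes letters in the window and is not a measured binding site.

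**Figure D1:**
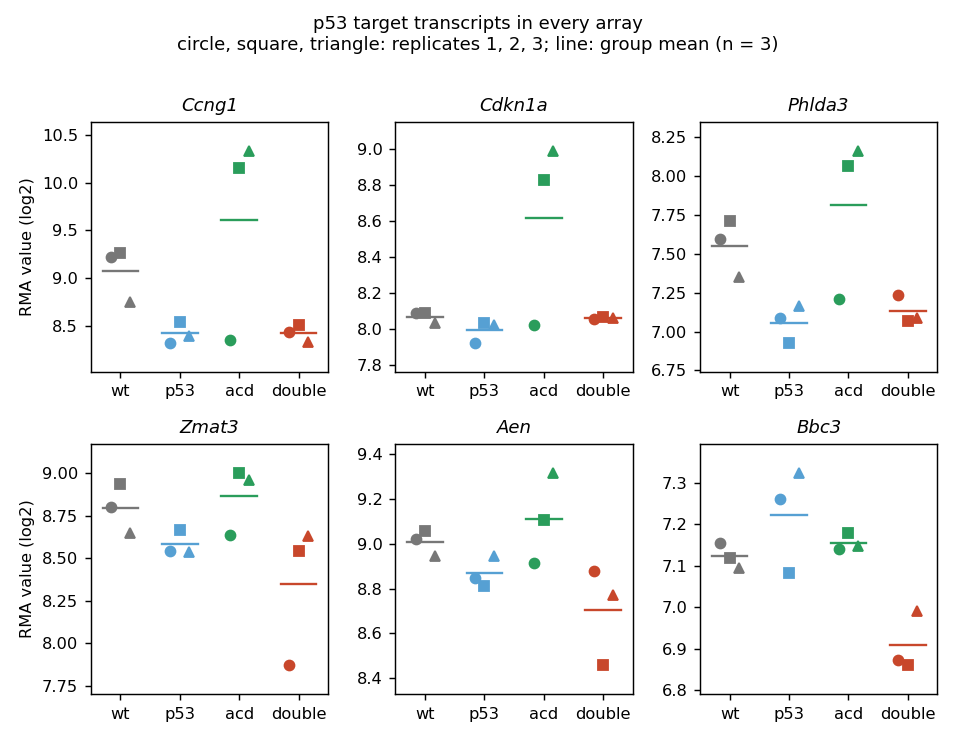
RMA log2 value (vertical axis) of p53 target transcripts in each array, by genotype; points are arrays, the symbol shape gives the replicate number and lines are group means (n = 3). For Ccng1, Cdkn1a and Phlda3 acd replicates 2 and 3 lie above all double arrays, while acd replicate 1 lies among them for Ccng1 (8.34 against 8.32 to 8.51) and Phlda3 and just below them for Cdkn1a (8.02 against 8.06 to 8.07).

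Among death targets, Phlda3, an inhibitor of the kinase AKT, measured 7.21, 8.06 and 8.16 in acd and 7.23, 7.07 and 7.09 in double arrays. The library labelled acd replicate 1 lay between double replicates 2 and 1. The difference was -0.68 ± 0.20 SE (adjusted p = 0.37), or -0.98 without that library (adjusted p = 0.03). Bbc3, the BH3-only protein PUMA, measured 7.14, 7.18 and 7.15 in acd and 6.87, 6.86 and 6.99 in double arrays. Here the groups did not overlap and acd replicate 1 lay with the other acd arrays (-0.25 ± 0.08 SE, unadjusted p = 0.00791). In Bbc3 the p53 effect itself differed between embryos with and without acd at an unadjusted interaction p of 0.00829, as p53 arrays (7.26, 7.08, 7.33) were not below wt arrays (7.16, 7.12, 7.09). Aen, an exonuclease that p53 induces during apoptosis, measured 8.91, 9.11 and 9.32 in acd and 8.88, 8.46 and 8.77 in double arrays, with no overlap (-0.41).

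Zmat3, an RNA-binding protein induced by p53, measured 8.63, 9.003 and 8.96 in acd and 7.87, 8.54 and 8.63 in double arrays. Its groups touched at 8.63 to 2 decimals without overlapping, with a difference of -0.52. Gtse1, which shuttles p53 out of the nucleus in G2, was at 7.82, 7.94 and 7.97 in acd and at 7.19, 7.67 and 7.71 in double arrays. The double arrays were below all acd arrays, and Gtse1 differed by -0.39. Xpc, which recognises DNA lesions in nucleotide excision repair, differed by -0.32, also without overlap, while the stress regulators Sesn2 and Ddit4l differed by -0.43 and -0.42 with overlapping groups. Not every target was lower: Ddit4, an inhibitor of mTORC1 signalling, differed by 0.45, and Mdm2, the ubiquitin ligase that degrades p53, by -0.03 with overlapping groups.

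In all, 24 of 37 tested p53 targets measured lower and 13 higher in double embryos. At an unadjusted p under 0.05 there were 11 lower and 1 higher, and 5 did not overlap, all lower. Their median difference was -0.09, against -0.01 over all genes, and -0.19 without the library labelled acd replicate 1. Leaving out double replicate 3, 3 targets were called lower and 3 higher. Between p53 and wt embryos, 12 of 15 arrest targets, 7 of 9 death targets and 11 of 13 metabolism and repair targets were lower as well. The remaining gene called without the library labelled acd replicate 1 was Gm6958, a predicted gene on chromosome 16. It measured 5.66, 8.20 and 8.44 in acd, 5.44, 5.29 and 5.99 in double, 7.55, 8.42 and 8.03 in wt and 6.65, 5.71 and 5.495 in p53 arrays. Its levels thus fell into a high set of wt and 2 acd arrays and a low set of the rest (-1.86 ± 0.60 SE, or -2.74 without that library, adjusted p = 0.0303).

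Over all tested genes the smallest p belonged to Irs4, an insulin receptor substrate that relays insulin and IGF signals. Irs4 measured 7.67, 7.86 and 8.16 in acd and 6.46, 7.05 and 6.90 in double arrays. All 3 double arrays lay below the other 9 arrays, where wt and p53 ran from 7.60 to 7.88. The difference was -1.09 ± 0.16 SE (limma unadjusted p = 1.91e-05, adjusted p = 0.258). Irs4 is X-linked, and its lowest value was in double replicate 1, which like the acd arrays carried Y-linked transcripts. Its interaction with acd had an unadjusted p of 0.000528.

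Mybpc3, a myosin-binding protein of the heart sarcomere, followed at 8.12, 8.08 and 8.09 in acd and 7.50, 7.75 and 7.36 in double arrays. The acd arrays lay close together and every double array was below the other 9. Its difference was -0.56 ± 0.09 SE (unadjusted p = 7.75e-05, adjusted p = 0.37). Among other sarcomere genes, Unc45b, a myosin chaperone (-0.62), Nebl, a Z-disc protein (-0.40), and Ldb3, also of the Z-disc (-0.52), separated the groups too. These 3 were lower in each double array than in each acd array. Over the probe sets of Ldb3 the difference ranged from -0.52 to -0.05.

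Aldh1a3, an enzyme that makes retinoic acid, measured 5.91, 6.17 and 6.47 in acd and 5.03, 5.63 and 4.93 in double arrays. Its double mean lay below the array medians of 5.32 to 5.40, where background can compress differences, so no size is given. Usp15, a deubiquitinase, differed by -0.44, and Zbtb38, a methyl-DNA-binding repressor, by -0.62, both without overlap. Over their probe sets the differences ranged from -0.44 to -0.02 for Usp15 and from -0.62 to -0.17 for Zbtb38.

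Among genes above acd in all 3 double arrays, Hoxa5 measured 9.05, 9.02 and 8.96 in acd and 9.44, 9.43 and 9.45 in double arrays. The 3 double arrays lay close together and the wt and p53 arrays, at 9.13 to 9.38, fell between the groups. The difference was 0.43 ± 0.08 SE (unadjusted p = 0.000177). Neurog2, a transcription factor that commits progenitors to neurons, measured 8.61, 8.40 and 8.46 in acd and 9.06, 9.25 and 8.82 in double arrays, a difference of 0.55. Igfbp3, an IGF-binding protein, measured 8.75, 8.61 and 8.68 in acd and 9.58, 9.37 and 8.93 in double arrays (0.61), with double replicate 3 nearest to acd.

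Fgfbp3, an FGF-binding protein (0.48), Shd, an SH2 adaptor (0.44), and Cplx2, a regulator of synaptic vesicle fusion (0.33), also lay above acd in all double arrays. The X-linked genes Vamp7 (0.42) and Jpx (0.43), the latter an RNA that activates Xist, were in this set too. In wt embryos the 2 arrays without Y-linked transcripts also read Vamp7 and Jpx higher (9.28 and 9.28 against 9.04, and 6.59 and 6.47 against 6.30). For these genes, genotype and sex cannot be told apart in double replicates 2 and 3. Double replicate 1, with Y-linked transcripts, measured 9.57 for Vamp7 and 6.37 for Jpx, above all acd arrays.

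**Figure D2:**
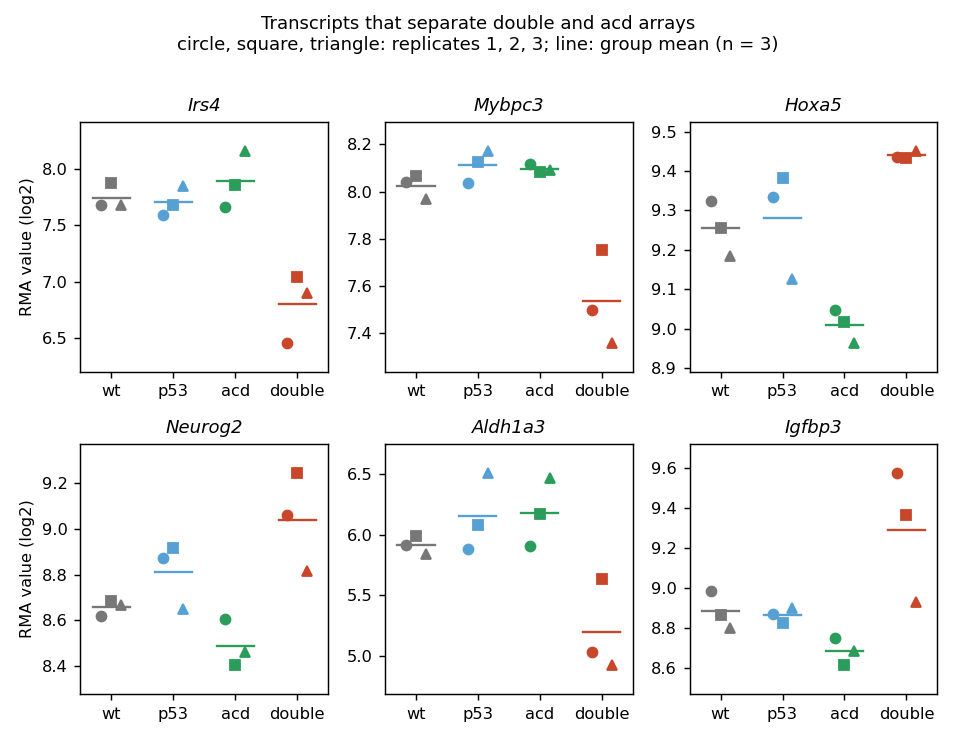
RMA log2 value (vertical axis, scaled per gene) of 6 transcripts whose double and acd arrays do not overlap, by genotype; symbols are replicates 1 to 3 and lines group means (n = 3). For Irs4 and Mybpc3 the double arrays lie below all others, at 6.46 to 7.05 and 7.36 to 7.75, and for Hoxa5 the acd arrays lie below all others, at 8.96 to 9.05.

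Gene groups differed in which double arrays carried the difference. In what follows the mean of a group in an array is given relative to its mean over the 3 acd arrays. In a whole embryo, fewer cells of a type and less RNA per cell cannot be told apart.

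**Figure D3:**
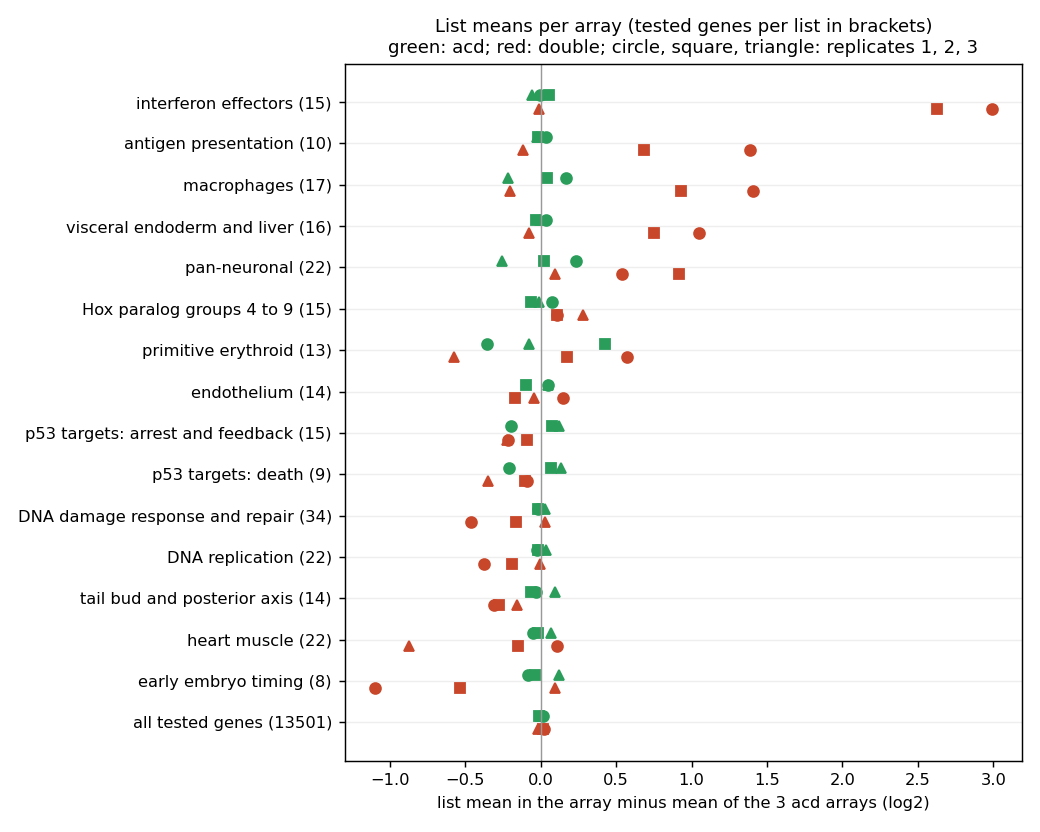
Mean of each gene group (vertical axis) in each acd (green) and double (red) array, relative to the mean of the 3 acd arrays (horizontal axis, log2 difference); symbols are replicates 1 to 3. Interferon effectors lie at 2.99 and 2.62 in double replicates 1 and 2 and at -0.01 in double replicate 3, while heart muscle lies at -0.87 in double replicate 3 alone.

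Heart muscle transcripts were lower, chiefly in 1 double array. Of 22 tested, 20 measured lower and 2 higher, 6 had an unadjusted p under 0.05 and 6 did not overlap, all lower, with a median of -0.27. Those without overlap were Tbx20, Myh6, Mybpc3, Actn2 (-0.36), Actc1 (-0.28) and Nkx2-5 (-0.20). The group means were 0.11, -0.15 and -0.87 in double replicates 1 to 3. Double replicate 3 lay below the range of the acd arrays for 21 of the 22 genes, while double replicate 1 lay above it for 12. Without double replicate 3 the median was 0.02, and with sex as a term 0.04. With double replicate 3 as the only double array it was -0.72 and 15 of the 22 were called lower.

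Myl2, the ventricular myosin light chain, measured 11.24, 11.31 and 11.25 in acd and 11.96, 11.25 and 9.24 in double arrays. Double replicate 3 was far below every other array and double replicate 1 above them. Nppa, the atrial natriuretic peptide, had the same layout at 9.29, 9.37 and 9.504 in acd and 10.34, 9.28 and 7.34 in double arrays. Pln, which inhibits the calcium pump of heart muscle, measured 6.73, 6.71 and 6.83 in acd and 7.50, 6.91 and 4.95 in double arrays. These 3 genes differed by 0.33, 0.42 and 0.45, in the other direction, without double replicate 3. Tbx20, a T-box factor of the heart, instead was lowest in double replicate 1. It measured 7.77, 7.60 and 7.85 in acd against 6.42, 7.40 and 7.40 in double arrays (-0.66, no overlap, -0.73 to -0.10 over its probe sets). Myh6, the atrial myosin heavy chain, shared that layout (9.40, 9.54 and 9.55 against 8.07, 9.26 and 9.24).

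The same double array was low for a few forebrain transcripts. Wnt8b, a Wnt ligand of the dorsal forebrain, measured 7.31, 7.27 and 7.20 in acd and 7.51, 7.40 and 5.69 in double arrays. Fezf2, a forebrain transcription factor, measured 6.29, 6.37 and 6.18 in acd and 6.54, 6.47 and 5.07 in double arrays. In both, double replicates 1 and 2 were above and double replicate 3 below every acd array. Dmrt3, a transcription factor of the cortical primordium, was at 5.37 in double replicate 3 against 6.24 to 6.49 in the other double and acd arrays. Six3, which specifies the anterior forebrain, was at 6.08 there against 6.76 to 6.85 in acd, though double replicate 1 was low as well at 6.46. With double replicate 3 as the only double array, 2 of 17 genes of the neural progenitor and forebrain list were called lower. The 1 gene called higher was Olig3, a factor of dorsal neural progenitors (8.46 against 7.94 to 8.01 in acd, and 7.89 and 7.89 in the other double arrays). Wnt8b, Fezf2, Dmrt3 and Olig3 were chosen after their values were seen.

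**Figure D4:**
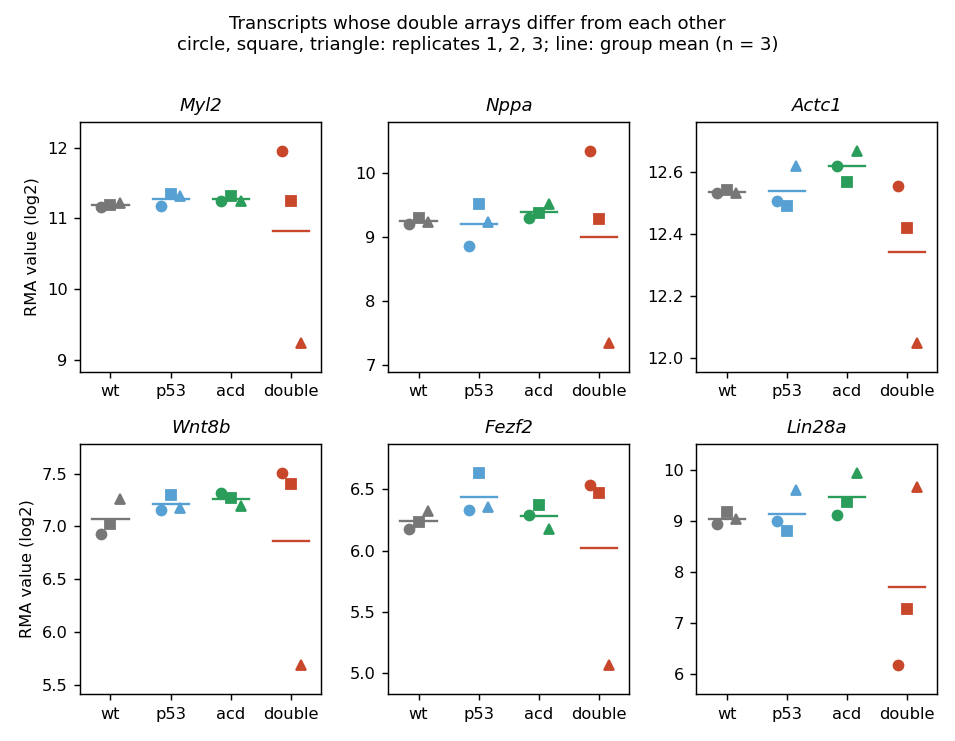
RMA log2 value (vertical axis, scaled per gene) of 6 transcripts in each array, by genotype; symbols are replicates 1 to 3 and lines group means (n = 3). Double replicate 3 lies below all other arrays for heart and forebrain transcripts, as with Myl2 at 9.24 and Wnt8b at 5.69, and double replicates 1 and 2 lie below all others for Lin28a, at 6.18 and 7.27.

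Transcripts of the tail bud, where the trunk and tail are still being laid down, were lower in all 3 double arrays. Of 14 tested, 11 measured lower, 5 with an unadjusted p under 0.05, and 5 lay below acd in every array (background 6.9%), with a median of -0.24. The group means were -0.31, -0.27 and -0.16 in double against -0.03, -0.06 and 0.10 in acd arrays. With double replicate 3 as the only double array the median was -0.13. Cyp26a1, which degrades retinoic acid at the caudal end, measured 7.81, 7.75 and 7.90 in acd and 7.28, 7.05 and 7.62 in double arrays. The groups did not overlap (-0.51 ± 0.13 SE). Fgf17 measured 5.97, 5.75 and 5.85 against 5.68, 5.45 and 5.22 (-0.41). Fgf8 measured 7.58, 7.23 and 7.27 against 7.19, 6.82 and 7.21 (-0.29). Both encode fibroblast growth factors that keep the tail bud growing, and in both the lowest acd array lay just above the highest double array.

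Cdx2, a homeobox factor that drives posterior growth, measured 5.95, 5.70 and 6.16 in acd and 5.25, 5.62 and 5.68 in double arrays, with no overlap (-0.42). In contrast, 11 of the 14 were higher in p53 than in wt embryos, with a median of 0.07. The group means relative to acd were -0.07, -0.04 and 0.14 in p53 and -0.08, -0.06 and -0.05 in wt arrays. Most of that rise thus lay in p53 replicate 3, which also enters the interaction values that follow. For 5 of the 14 the effect of p53 loss differed between embryos with and without acd at an unadjusted interaction p under 0.05. Over all genes that share was 3.93%, or 531 of 13501. For Cdx2 and Fgf17 this interaction p was 0.0152 and 0.00924.

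Hox genes, which give segments their identity along the body axis, measured higher. Of 30 tested, 24 were higher, 9 at an unadjusted p under 0.05, and 6 lay above acd in every array (background 4.41%). Those 6, Hoxa5, Hoxa7, Hoxb6, Hoxc4, Hoxc8 and Hoxc9, all belong to paralog groups 4 to 9. In these groups 13 of 15 tested genes were higher, with a median of 0.17, and double replicate 3 lay above the acd range for 15 of 15. Without double replicate 3 the median was 0.14 in these groups and 0.06 over all 30 Hox genes, where it was 0.13 with every array. The mean of groups 4 to 9 relative to acd was 0.11, 0.11 and 0.28 in double arrays. It was 0.20, 0.24 and 0.15 in wt and 0.17, 0.25 and 0.21 in p53 arrays, so the double arrays lay among or near the other genotypes and acd below. The rise was not confined to these groups. In groups 1 to 3, 6 of 7 genes were higher (median 0.11). In groups 10 to 13, 5 of 8 were (median 0.04), 3 at an unadjusted p under 0.05. Hoxd13 (0.52) and Hoxa10 (0.50) differed most, with overlapping arrays.

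Hoxb6 measured 8.25, 8.07 and 8.14 in acd and 8.62, 8.40 and 8.48 in double arrays (0.35 ± 0.08 SE). Hoxc9 measured 8.53, 8.32 and 8.30 in acd and 8.70, 8.59 and 8.66 in double arrays (0.27). For each of them all double arrays exceeded all acd arrays. Hoxb1, which patterns the hindbrain, went the other way at 7.24, 7.18 and 7.66 in acd and 5.76, 6.29 and 7.68 in double arrays. It was low in double replicates 1 and 2 and at the acd level in double replicate 3.

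Neuronal transcripts were higher in double replicates 1 and 2. Of 22 pan-neuronal genes 21 measured higher, 16 at an unadjusted p under 0.05, while 1 gene had no overlap, and the median was 0.48. Means relative to acd were 0.54, 0.92 and 0.10 in double arrays and 0.34, 0.19 and 0.19 in wt arrays. Acd replicate 3 was the lowest acd array for 22 of 22 genes, and without it the median was 0.34. The median was 0.29 without double replicate 2 and 0.10 with double replicate 3 as the only double array. Double replicate 2 lay above the acd range for 22 of 22 and double replicate 3 within it for 19.

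Stmn2, a tubulin-binding protein of growing axons, measured 10.40, 10.16 and 9.81 in acd and 11.48, 11.30 and 10.33 in double arrays (0.92 ± 0.26 SE). Double replicate 3 lay within the acd range. Fabp7, a lipid-binding protein of radial glia, had the same layout at 11.28, 11.06 and 10.85 in acd and 12.50, 12.09 and 11.17 in double arrays. Rbfox3, an RNA-binding protein known as the neuronal marker NeuN, was the pan-neuronal gene without overlap (7.21, 7.18 and 6.92 against 7.52, 7.69 and 7.28).

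Neurog1, which specifies sensory neurons, measured 8.92, 8.69 and 8.60 in acd and 9.03, 9.04 and 8.98 in double arrays, where wt arrays ran from 8.94 to 8.98. All double arrays were above acd and near wt (0.28, a second probe set of the gene differing in sign). Nes, the intermediate filament nestin of neural progenitors, differed by 0.30 without overlap, again with a probe set of the opposite sign. The neural progenitor and forebrain list, which holds Nes, had no common direction: of 17 tested, 5 measured higher and 12 lower, 2 each way at an unadjusted p under 0.05, with a median of -0.07. In it Sox2 (-0.07), Pax6 (-0.14) and Hes5 (0.05) overlapped between groups. Sox1 and Sox3, factors that hold neural progenitors undifferentiated, had an unadjusted p under 0.05 in the lower direction. Sox3 measured 9.59, 9.53 and 9.55 in acd and 8.50, 9.26 and 9.48 in double arrays (-0.48, no overlap), with the lowest value in double replicate 1. It is X-linked, and double replicate 1 and the acd arrays all carried Y-linked transcripts. Sox1 differed by -0.45, with double replicate 3 at 8.07 inside the acd range of 8.01 to 8.12.

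In the neural crest, the migratory cells that form pigment and peripheral nerves, 3 of 13 tested genes lay above acd in every double array and 1 below, with a median of -0.002. Snai2, a repressor that lets crest cells leave the neural tube, measured 10.44, 10.35 and 10.21 in acd and 10.68, 10.77 and 10.51 in double arrays (0.32 ± 0.09 SE). The groups did not overlap. Mitf, the master regulator of pigment cells, measured 6.67, 6.71 and 6.76 in acd and 6.24, 6.44 and 6.35 in double arrays, all below acd (-0.37). In p53 arrays Mitf ranged from 6.29 to 6.94, so p53 replicate 1 read it as low as the double arrays.

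Genes of the interferon response were far higher in double replicates 1 and 2 than in acd embryos. Interferons bind surface receptors that activate STAT proteins and IRF9, which then switch on antiviral effectors. All 15 tested effectors measured higher, 13 at an unadjusted p under 0.05 and 2 without overlap, with a median of 1.88. Means relative to acd were 2.99, 2.62 and -0.01 in double replicates 1 to 3. All 15 were called higher without double replicate 3, and with it as the only double array the median was -0.03. Double replicate 3 lacked the rise, so leaving it out is no separate test of these genes. In 6 of the 15 a group mean lay below the array medians. Of 26 listed effectors 24 were measured, and 15 of these passed the filter. Usp18 was at 10.68 and 10.01 in double replicates 1 and 2 and at 3.715 to 4.97 in all other arrays. Such genes can pass the filter through the arrays where they are high, so the count and the median depend in part on it.

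The promoters of Rsad2 and Bst2 are shown, since both genes were high in double replicates 1 and 2. Each line gives the 250 bases before the start, from RefSeq, GRCm38.p6, 5′ to 3′ on the gene's strand, with matches to the interferon-stimulated response element in capitals. The element was searched on both strands as GAAA, any 2 bases and GAAA again. Rsad2 lies on the minus strand at chr12:26456453-26456702 and Bst2 on the minus strand at chr8:71537473-71537722.
Rsad2: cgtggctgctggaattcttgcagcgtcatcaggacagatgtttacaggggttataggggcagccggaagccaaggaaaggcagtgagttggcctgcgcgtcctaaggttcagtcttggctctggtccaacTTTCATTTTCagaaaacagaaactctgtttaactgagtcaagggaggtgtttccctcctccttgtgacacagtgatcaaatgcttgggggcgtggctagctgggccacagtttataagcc
Bst2: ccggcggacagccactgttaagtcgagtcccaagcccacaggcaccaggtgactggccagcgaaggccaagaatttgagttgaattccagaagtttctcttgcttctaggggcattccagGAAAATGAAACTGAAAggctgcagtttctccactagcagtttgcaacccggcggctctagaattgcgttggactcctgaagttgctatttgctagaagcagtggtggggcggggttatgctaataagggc
The element begins 120 bases before the start in Rsad2, where 1 match was found, and 130 in Bst2, where 2 matches overlap. It was present on either strand in 3.44% of 32851 windows of 300 bases and in 3.28% of tested genes with a window. It was present in 6 of the 10 effectors with a window: Rsad2, Oas1a, Bst2, Ifitm3, Trim30a and Eif2ak2. Of the 3 motifs searched, matches of different motifs overlapped in 9 windows.

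Rsad2, the antiviral enzyme viperin, measured 6.88, 6.71 and 6.44 in acd and 10.72, 10.49 and 6.95 in double arrays. Double replicates 1 and 2 were far above every other array and double replicate 3 just above acd (2.71 ± 0.73 SE). With every array the limma adjusted p was 0.37. Without double replicate 3 the difference was 3.93 (adjusted p = 2.47e-08), and with it as the only double array 0.27. The smaller p-value comes from leaving out the array that lacked most of the rise, and is no separate support. Bst2, the tethering protein tetherin, measured 6.54, 6.35 and 6.44 in acd and 11.28, 10.31 and 6.29 in double arrays. Here double replicate 3 was below acd. Ifitm3, which blocks virus entry, measured 8.80, 8.52 and 8.76 in acd and 12.39, 11.95 and 8.78 in double arrays, with double replicate 3 inside the acd range.

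Of 11 interferon receptors and transcription factors, 10 measured higher, 3 at an unadjusted p under 0.05, with a median of 0.14, which was 0.06 with double replicate 3 as the only double array. Irf9, the DNA-binding partner of the STAT proteins, measured 6.49, 6.54 and 6.57 in acd and 9.52, 9.22 and 6.85 in double arrays, without overlap (1.998). The receptor chain Ifnar1 differed by 0.11. Of 10 nucleic acid sensors, 6 measured higher, 3 at an unadjusted p under 0.05, with a median of 0.11 (0.02 without double replicate 1 and 0.23 without double replicate 3). Among them Ifih1, the RNA sensor MDA5, measured 5.63, 5.91 and 5.56 in acd and 9.18, 9.21 and 5.52 in double arrays. The RNA sensor Ddx58 (RIG-I) lay at 7.24 and 7.42 in double replicates 1 and 2 and below the array medians in the acd arrays and double replicate 3. Cgas, the DNA sensor, differed by 0.33, and by -0.08 with double replicate 3 as the only double array. Antigen presentation genes measured higher in 10 of 10, 5 at an unadjusted p under 0.05, with a median of 0.60. Their means relative to acd were 1.38, 0.68 and -0.12 in double replicates 1 to 3. The median was 0.24 without double replicate 1, 0.95 without double replicate 3 and -0.12 with it as the only double array. Tapbp, which loads peptides onto class I molecules, measured 6.91, 6.84 and 6.88 in acd and 9.22, 8.59 and 6.98 in double arrays. The group means differed by 1.39, and by 0.10 with double replicate 3 as the only double array. A second probe set of Tapbp differed by 0.18.

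**Figure D5:**
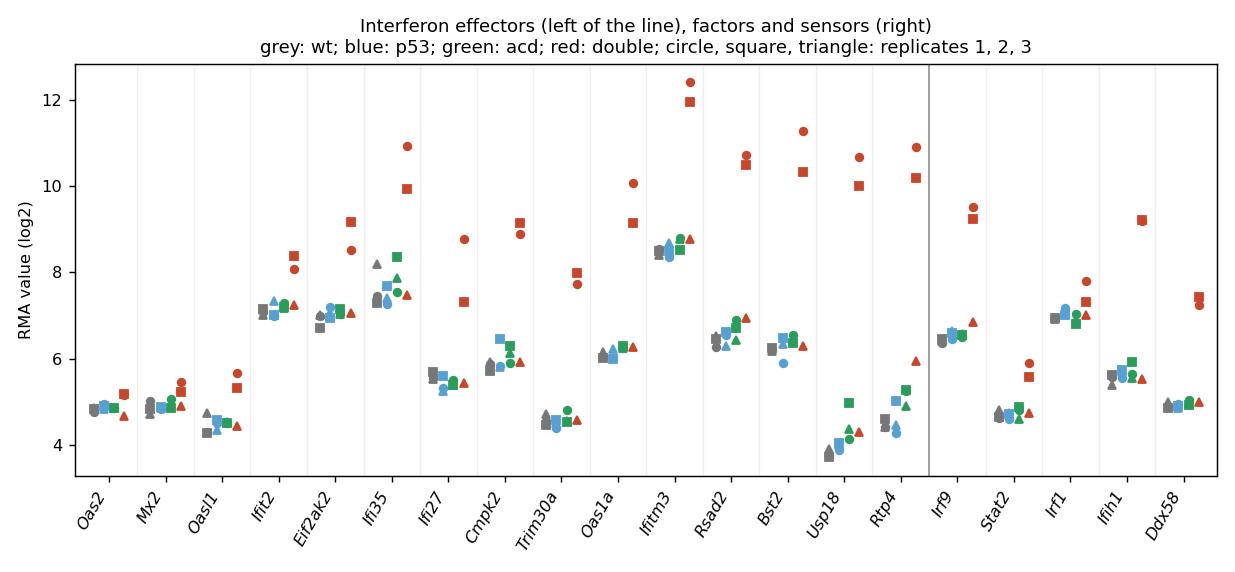
RMA log2 value (vertical axis) of interferon effectors, left of the line, and factors and sensors, right of it, in each array; colours are genotypes and symbols replicates 1 to 3. For most genes double replicates 1 and 2 lie far above the other arrays, as with Rsad2 at 10.72 and 10.49, while double replicate 3 lies with acd, at 6.95 against 6.44 to 6.88.

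Macrophage markers had the same order as the interferon genes across the double arrays. Of 17 tested, 16 measured higher, 8 at an unadjusted p under 0.05 and 3 without overlap, with a median of 0.74, and means relative to acd were 1.41, 0.93 and -0.20 in double replicates 1 to 3. The median was 0.33 without double replicate 1, 1.23 without double replicate 3 and -0.24 with it as the only double array. Csf1r, the receptor that macrophages need to survive, measured 7.63, 7.56 and 6.999 in acd and 8.85, 8.49 and 7.21 in double arrays. C1qb, a complement subunit made by macrophages, measured 6.74, 6.51 and 6.75 in acd and 8.67, 7.57 and 6.77 in double arrays. Double replicate 3 was at the acd level for both. Spi1, the factor that defines the myeloid lineage, differed by -0.07. The part of macrophages in the interferon values was not tested.

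Transcripts of visceral endoderm and liver had the same order. Of 16 tested, 13 measured higher, 5 at an unadjusted p under 0.05, with a median of 0.65 and means relative to acd of 1.05, 0.75 and -0.08 in double replicates 1 to 3. These transcripts also varied within another genotype, as p53 replicate 2 was at 0.65 and p53 replicates 1 and 3 at -0.39 and -0.49. The double against acd median was 0.39 without double replicate 1, 0.99 without double replicate 3 and -0.09 with it as the only double array. Alb, which encodes albumin, measured 7.96, 7.88 and 7.33 in acd and 10.25, 9.89 and 7.64 in double arrays. Double replicates 1 and 2 were above all other arrays. Foxa2, an endoderm factor, differed by -0.34.

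Transcripts that fade as the embryo matures were low in double replicates 1 and 2. Of 8 tested early timing genes 6 measured lower, 3 at an unadjusted p under 0.05, with a median of -0.38 and means relative to acd of -1.09, -0.53 and 0.09. That median was -0.09 without double replicate 1, -0.63 without double replicate 3 and 0.10 with it as the only double array. Lin28a, an RNA-binding protein that blocks let-7 maturation, measured 9.11, 9.37 and 9.94 in acd and 6.18, 7.27 and 9.66 in double arrays. Double replicates 1 and 2 were below every other array of the series, where wt and p53 ran from 8.80 to 9.60, and double replicate 3 was within the acd range. Trim71, a let-7 target, measured 9.68, 9.87 and 10.19 in acd and 7.74, 8.64 and 10.23 in double arrays. In a fit that left out double replicate 3, 4 of the 8 were called lower, Lin28a by -2.75 (adjusted p = 0.000713). Double replicate 3 lay within the acd range for Lin28a, so that fit is no separate test of it. With every array the Lin28a probe set used here differed by -1.77 and a second one by -0.42. Finer stage than the labelled day was not given, and its part in the values of double replicates 1 and 2 was not tested.

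DNA damage response and repair transcripts were lower, most of all in double replicate 1. Of 34 tested, 31 measured lower, 8 at an unadjusted p under 0.05 and 6 below acd in every array, with a median of -0.20. Means relative to acd were -0.46, -0.17 and 0.03, and double replicate 1 was the lowest double array for 28 of 34. Without double replicate 1 the median was -0.04, and without double replicate 3 it was -0.34 with 11 called lower. It was 0.03 with double replicate 3 as the only double array. Bard1, the partner of BRCA1 in homologous recombination, measured 5.62, 5.45 and 5.55 in acd and 4.84, 4.87 and 5.16 in double arrays. The double arrays lay below acd and below the array medians, so no size is given. Fancd2, which marks crosslinked DNA for repair, measured 7.15, 7.17 and 7.18 in acd and 6.36, 6.89 and 7.09 in double arrays, all below acd (-0.39). Palb2, which brings BRCA2 to breaks, differed by -0.29 without overlap.

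The promoter of Bard1 is shown because it separated the groups in every array and holds an E2F site, the element of genes switched on for DNA synthesis. The line gives the 250 bases before the start from RefSeq, GRCm38.p6, on the minus strand at chr1:71102973-71103222, with the match in capitals.
Bard1: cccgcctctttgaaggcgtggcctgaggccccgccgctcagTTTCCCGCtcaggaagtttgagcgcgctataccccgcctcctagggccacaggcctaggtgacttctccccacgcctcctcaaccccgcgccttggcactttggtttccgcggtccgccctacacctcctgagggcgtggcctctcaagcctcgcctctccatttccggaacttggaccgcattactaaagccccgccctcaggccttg
The letters searched, on both strands, were TTTGGCGC, TTTCCCGC, TTTGCCGC and TTTCGCGC. They were present in 2.26% of all windows and 4.53% of tested genes with a window, in 8 of 27 repair genes and in 8 of 18 replication genes with a window.

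Replication genes followed the repair genes. Of 22 tested, 20 measured lower, 5 at an unadjusted p under 0.05 and 4 without overlap, with a median of -0.19 and means relative to acd of -0.38, -0.19 and -0.005 in double replicates 1 to 3. Their median was -0.09 without double replicate 1 and -0.02 with double replicate 3 as the only double array. Mcm4, a subunit of the replicative helicase, measured 12.07, 12.11 and 12.10 in acd and 11.33, 11.92 and 12.07 in double arrays (-0.32). Ccne1, cyclin E1, which starts DNA synthesis, measured 10.74, 10.79 and 10.88 in acd and 10.42, 10.47 and 10.62 in double arrays. Double arrays were below acd in both, and Ccne1 was low in each of them (-0.30 ± 0.08 SE). Its limma interaction had an unadjusted p of 0.0057.

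Of 19 G2 and mitosis genes 16 measured lower, 2 at an unadjusted p under 0.05 and 4 without overlap, with a median of -0.17. Here too the means followed that order, at -0.37, -0.13 and 0.03 relative to acd. Leaving out double replicate 1 gave a median of -0.06, leaving out double replicate 3 gave -0.29, and double replicate 3 alone gave 0.01. Nek2, a centrosome kinase, measured 9.59, 9.59 and 9.69 in acd and 8.93, 9.02 and 9.48 in double arrays (-0.48), and Aurkb, the kinase of the chromosomal passenger complex, differed by -0.36. Both were lower in every double array.

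Among 17 genes of shelterin, telomerase and the CST complex, 13 measured lower and 4 higher, 3 at an unadjusted p under 0.05 and 2 without overlap, all lower, with a median of -0.14. Double replicates 1 and 2 carried this, with means of -0.16 and -0.17 relative to acd against 0.04 in double replicate 3, which alone gave a median of 0.01. Gar1, a protein of the telomerase RNA particle that also modifies ribosomal RNA, measured 11.09, 11.10 and 11.20 in acd and 10.47, 10.75 and 11.07 in double arrays (-0.37 ± 0.12 SE). Terf2ip, the shelterin protein RAP1, measured 7.42, 7.24 and 7.25 in acd and 7.19, 6.96 and 7.15 in double arrays (-0.20). The groups did not overlap in either gene. Dkc1, which holds telomerase RNA and is X-linked, differed by -0.33 with overlapping groups.

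Embryos without acd give the effect of p53 loss a second time, in arrays that this comparison does not share. Over 13501 genes the double minus acd and p53 minus wt differences had a Pearson r of -0.121 and a Spearman rho of 0.025. These are given as a description, since genes are not independent replicates. Sex ran in opposite directions in these comparisons. Every p53 array and wt replicate 1 carried Y-linked transcripts (means of 8.07 to 8.31), while wt replicates 2 and 3 did not (3.72 and 3.26). Sex-linked genes had a median of -3.04 for double minus acd and 2.915 for p53 minus wt. Sex and genotype therefore cannot be fully told apart in the correlations or in the interaction tests. The median absolute difference was 0.114 for double against acd and 0.046 for p53 against wt. Groups separated the same way in both for 58 genes, 27 higher and 31 lower, and in opposite ways for 16 and 22. Of the other genes above or below acd in every double array, 552 and 879 overlapped between p53 and wt. Among genes whose double and acd arrays overlapped, p53 arrays lay above wt for 406, below for 402 and overlapped for 11166. The same-way and opposite counts were not tested against these shares and are not read as shared or opposed effects. Of the 58, 9 lie on chromosome 11, which holds 1115 of the tested genes and encodes p53.

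No gene passed the test that the p53 effect differs between embryos with and without acd (0% of 13501). In a fit that left out double replicate 3, 439 genes did. Irs4 and Mybpc3 had unadjusted interaction p values of 0.000528 and 0.000433, and Hoxa5 and Neurog2 0.00385 and 0.029. For Cdkn1a it was 0.0983 and for Ccng1 0.361. On chromosome 11, Glod4, a glyoxalase domain protein, measured 11.002, 11.004 and 10.66 in wt and 10.02, 10.08 and 10.11 in p53 arrays. The acd arrays, at 10.12, 10.15 and 10.69, and the double arrays, at 10.32, 9.96 and 10.11, overlapped, and acd replicates 1 and 2 lay at the p53 level. Scpep1, a serine carboxypeptidase also on chromosome 11, measured 9.77, 9.88 and 10.12 in wt and 10.21, 10.53 and 10.503 in p53 arrays. It ran from 10.36 to 10.43 in acd and from 10.44 to 10.497 in double arrays, so all acd and double arrays lay above wt. Whether acd embryos carried DNA linked to the p53 allele was not tested.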

How the data were processed

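The authors deposited log2 expression values, normalized with RMA per the submitters' processing notes, and the series' design text names BRB-ArrayTools 4.4.0 for gene selection. RMA forces near-equal distributions (array medians 5.32 to 5.40), which hides any difference in total RNA. RNA was labelled from 250 ng, per the labels' protocols.

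Of 45101 probe sets, 34945 had 1 gene symbol, 932 several, 9160 non-control ones none and 64 were controls. RefSeq matched 34741 by gene identifier. Each gene took its probe set with the highest mean. A gene was tested if it lay above its array's 40th percentile in at least 3 arrays (13501 of 18193 genes).

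A mean per genotype was fitted over 12 arrays (8 residual degrees of freedom) with limma 3.58.1 in R 4.3.3, two-sided, with Benjamini-Hochberg adjustment over all tested genes at 0.05. The fit was tested on simulated data with equal spread in all arrays and the same shift in every double array. That setting does not cover the wider spread of the double arrays. The labels do not say whether replicates share a litter, so p-values measure the spread between these samples, whose number limits the precision. The fit shares its estimate of spread between all genotypes. The median SD per gene was 0.209 in double, 0.072 in acd, 0.059 in wt and 0.095 in p53 arrays. SEs and p-values given here can therefore understate the spread between double arrays. Members and lists were chosen with earlier results of these data known. Genes were named by a rule: Acd; the 12 higher and 12 lower genes of smallest p without overlap; the 8 highest and 8 lowest without overlap and above the array medians; and up to 6 genes of smallest p per list. Other names were chosen after their values were seen: Gm6958, Mdm2, Bst2, Csf1r, Spi1, Eif2ak2, Myl2, Nppa, Pln, Wnt8b, Fezf2, Dmrt3, Olig3, Hoxb1, the Hox genes other than Hoxa5, Glod4 and Scpep1. Alternatives were other filters, probe set rules, normalizations, variance models, array weights, a replicate block, sex as a term and leaving out arrays.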

Additional observations from a re-analysis of the deposited data

Results flagged for a closer look

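Every double array lay above every acd array, while every p53 array lay below every wt array, for 16 of the 13501 tested genes. Of the other genes above acd in every double array, 27 were also higher in p53 and 552 overlapped between p53 and wt. Where double and acd arrays overlapped, p53 arrays lay below wt for 402 genes and overlapped for 11166. The count of 16 was not tested against that share and is no result by itself. Of the genes followed through the processing settings, Ednrb and Irf3 did so. Ednrb, the endothelin receptor of neural crest cells, measured 9.34, 9.19 and 9.14 in acd, 9.71, 9.67 and 9.45 in double, 9.45, 9.27 and 9.28 in wt and 9.21, 9.24 and 9.23 in p53 arrays. Its difference between double and acd was 0.39, and the limma interaction had an unadjusted p of 0.00236. Irf3, a transcription factor that nucleic acid sensors activate, measured 9.06, 9.10 and 9.06 in acd, 9.26, 9.10 and 9.16 in double, 9.18, 9.20 and 9.15 in wt and 9.07, 8.97 and 9.11 in p53 arrays. Its difference was 0.10, with an unadjusted interaction p of 0.0407, and its probe sets differed in sign. Neither interaction passed after adjustment over all genes. Groups of 3 arrays were not tested for outliers.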

How the results depend on the processing

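Calls of double against acd stood at 0 except with array weights (1774), with double replicate 3 as the only double array (31) and without the library labelled acd replicate 1 (4) or double replicate 3 (1876); leaving out 1 array gave 0 to 1876. The interaction had 0 calls except with sex as a term (1, Gtf3c2), with double replicate 3 as the only double array (25) and without double replicate 3 (439), a range of 0 to 439. The replicate block gave 0 calls. Deviations from the group means correlated at 0.02, 0.132 and 0.30 between same-numbered acd and double arrays, and at -0.394 to 0.277 between the others. Such deviations cancel within a group, so these values cannot decide whether the numbers pair the arrays. Genes higher at an unadjusted p under 0.05 numbered 2046 with array weights, 1909 with sex, 297 with the 6 arrays alone, 445 with double replicate 3 as the only double array and 341 to 2100 leaving out 1 array. Lower genes numbered 2149, 2030 and 278 in the first 3 of these, 1534 over every probe set and 292 to 2146 leaving out 1 array. Array weights were 0.068, 1.606 and 0.246 for double replicates 1 to 3. The cause of these moves was not tested.

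With double replicate 3 as the only double array, directions turned, among the 139 genes followed, for Acd (-0.029), Igf1 (-0.26), Hoxb1 (0.32), Stmn3 (-0.012), Sox1 (0.002), Usp18 (-0.20), Bst2 (-0.15), Eif2ak2 (-0.025), Stat2 (-0.026), Ifnar1 (-0.006), Ifih1 (-0.18), B2m (-0.07), Psmb8 (-0.24), Csf1r (-0.18), Ctss (-0.62), Alb (-0.085), Foxa2 (0.14), Hus1 (0.026), Dkc1 (0.017), Lin28a (0.19), Trim71 (0.32), Dnmt3b (0.074), Igf2bp1 (0.11), Cgas (-0.080), Hk2 (0.18), Trim30a (-0.038) and Gtf3c2 (0.11). They turned with array weights for Six3 (0.091), Nr2e1 (0.26) and Olig3 (-0.008), with sex as a term for Scpep1 (-0.024), Myl2 (0.11), Nppa (0.25), Pln (0.15) and Nr2e1 (0.028), and over the mean of probe sets for Irf3 (-0.035). Leaving out 1 array gave ranges across 0 for Mdm2 (-0.061 to 0.005), Spi1 (-0.16 to 0.019), Myl2 (-1.02 to 0.33), Nppa (-1.08 to 0.42), Pln (-0.83 to 0.45), Wnt8b (-0.71 to 0.19), Fezf2 (-0.51 to 0.22), Nr2e1 (-0.43 to 0.31), Olig3 (-0.088 to 0.20) and Gtf3c2 (-0.32 to 0.041). Of the 139 genes, 81 passed with array weights and 94 without double replicate 3.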

Other observations

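Other tissues of the embryo differed less, and their values are given here without explanation. Of 17 somite and muscle precursor genes, 12 measured higher in double than in acd embryos, 3 at an unadjusted p under 0.05 (limma), with a median of 0.04. Tcf15, a somite transcription factor, measured 8.53, 8.44 and 8.51 in acd and 8.78, 8.65 and 8.72 in double arrays, with no overlap (0.22). Of 14 limb bud genes 7 measured higher and 7 lower, with a median of 0.00 (0.003). Of 14 endothelial genes 5 measured higher and 9 lower, 0 at an unadjusted p under 0.05, with a median of -0.03.

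Primitive erythroid transcripts were spread widely within both groups. Means relative to acd were -0.35, 0.43 and -0.08 in the 3 acd arrays and 0.57, 0.18 and -0.58 in the 3 double arrays, and 0 of 13 genes had an unadjusted p under 0.05. Of 12 genes of hypoxia and glycolysis 7 measured lower, with a median of -0.13. Hk2, the first enzyme of glycolysis, measured 9.96, 10.01 and 10.24 in acd and 8.71, 9.61 and 10.25 in double arrays, low in double replicates 1 and 2 alone. Asns, asparagine synthetase of the integrated stress response, measured 9.89, 9.98 and 9.98 in acd and 9.65, 9.64 and 9.81 in double arrays, below acd in each (-0.25). The imprinted growth factor Igf2 measured 13.35, 13.27 and 13.24 in acd and 13.39, 13.44 and 13.42 in double arrays (0.13, its probe sets differing in sign).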
